A study of Homo sapiens with 6 samples.

Results

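The BCL2 family genes followed here were 10 regulators of apoptosis, chosen by name and read from the sense-strand row of each gene: BCL2L1, BCL2L2, MCL1, BCL2L11, BBC3, PMAIP1, BAK1, BID, BIK and BMF. They were 10 of 22984 genes with a sense row in the files, and all 10 were among the 14431 genes with enough reads to be tested. Nascent RNA was measured by Bru-seq, in which living cells take up bromouridine for 30 min so that only RNA made in that window is captured and sequenced, in HCT116, an established human colorectal carcinoma line. The 6 libraries were 2 cultures given 0.01% DMSO for 4 h and 1 culture each of GSTO1 siRNA (siGSTO1, 10 nM, 24 h), the GSTO1 inhibitor C1-27 (1 µM) at 4 h and at 24 h, and its inactive analogue C1-14 (10 µM, 4 h). GSTO1 is an omega-class glutathione transferase. The 24 h treatments were compared with 4 h DMSO, and neither a 24 h DMSO culture nor a non-targeting siRNA was analysed here, so treatment, time and, for siGSTO1, transfection cannot be told apart.

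BCL2 family proteins decide whether the mitochondrial outer membrane stays intact. The pro-survival members BCL-XL (BCL2L1), BCL-w (BCL2L2) and MCL1 hold the pore-forming effectors, among them BAK1, in check. The BH3-only members are stress sensors that bind and block the pro-survival proteins or act on the effectors directly, and many of them are controlled through transcription, among them PUMA (BBC3) and NOXA (PMAIP1), both known targets of p53.

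With siGSTO1, edgeR called BBC3, a BH3-only gene, higher and BCL2L1, a pro-survival gene, lower. Of all genes tested it called 3.69% higher and 1.21% lower. BMF, also BH3-only, was called higher too, but it had only 7 and 8 reads in DMSO. It had enough reads to be tested only through the siGSTO1 and 24 h C1-27 libraries, so its call is not counted as support. BBC3 was called in each alternative that tested it, whereas DESeq2 did not call BMF and 4 alternatives did not call BCL2L1. In RPKM (reads per kilobase of gene, scaled to the mapped reads of the library), the siGSTO1 culture was at 5.22 times the DMSO mean for BBC3, 6.76 times for BMF and 0.567 times for BCL2L1. MCL1, the most transcribed member, was at 0.976 times its DMSO mean. No member was called with C1-27 at 24 h, C1-27 at 4 h or C1-14, where 0.36%, 0.0208% and 0.139% of all genes tested were called, so that a count of 0 among 10 genes says little about the members.

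The upstream sequences of these 3 genes are shown because they are the members that edgeR called. Each line is the 250 bases before a RefSeq transcription start (GRCh38.p14, minus strand for each, written 5′ to 3′ on the gene's strand), from chr19:47232668-47232917 for BBC3, chr15:40108880-40109129 for BMF and chr20:31723964-31724213 for BCL2L1. BMF and BCL2L1 have 2 start windows each in the table, and the first listed is printed.
BBC3: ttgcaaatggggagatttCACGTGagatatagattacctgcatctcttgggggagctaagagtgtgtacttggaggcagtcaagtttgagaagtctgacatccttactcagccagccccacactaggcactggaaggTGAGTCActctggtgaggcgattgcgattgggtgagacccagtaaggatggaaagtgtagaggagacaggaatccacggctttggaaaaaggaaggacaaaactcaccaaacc
BMF: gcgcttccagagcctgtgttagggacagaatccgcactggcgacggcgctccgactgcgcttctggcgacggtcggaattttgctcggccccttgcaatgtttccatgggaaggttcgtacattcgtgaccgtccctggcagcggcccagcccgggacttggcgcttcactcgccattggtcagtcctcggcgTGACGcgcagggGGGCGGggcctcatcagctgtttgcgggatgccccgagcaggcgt
BCL2L1: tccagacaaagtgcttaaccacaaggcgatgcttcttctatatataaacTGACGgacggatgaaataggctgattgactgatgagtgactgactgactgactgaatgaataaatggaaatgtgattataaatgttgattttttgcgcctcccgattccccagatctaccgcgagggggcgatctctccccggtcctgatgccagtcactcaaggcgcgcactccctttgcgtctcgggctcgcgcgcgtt
Capitals mark matches, on either strand, to 9 searched motifs: the CRE (TGACGTCA), a short CRE (TGACG, contained in the CRE), a CHOP-ATF4 element (TGATGNAA), an AP-1 site (TGANTCA), an E-box (CACGTG), a FOXO core (TGTTTAC), an antioxidant response element core (TGACNNNGC, which can overlap the short CRE), a GC box (GGGCGG) and the p53 decamer. BBC3 held an AP-1 site 113 to 107 bases and an E-box 232 to 227 bases before the start, letters found in 6.57% and 6.35% of 35116 promoter windows of this length. BMF held a short CRE 57 to 53 bases before its start, and BCL2L1 held one 201 to 197 bases before its own, a motif in 21.2% of windows. The GC box, in 42.6% of windows, was in the BMF sequence 45 to 40 bases before the start and not in those of BBC3 and BCL2L1. These motifs were not particular to the called members. PMAIP1, which was not called, held a short CRE 55 to 51 bases before its start. BID held an E-box in some of its start windows, and BCL2L11, PMAIP1, BAK1 and BID held GC boxes. The p53 decamer, in 5.57% of windows, was found only for BAK1 among the members, 73 to 64 bases before its start. The 3 printed windows shared no single motif, and a match is only a description of the letters. RefSeq windows were matched for 7 of the 10 members. BCL2L2, MCL1 and BIK had none in the table.

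The libraries held 18112861 to 36841146 sense reads, with DMSO culture 1 and siGSTO1 the shallowest. All 6 epithelial markers were present in every library, with a summed level of 14.9 to 33.2 RPKM, against 0.276 to 0.533 RPKM for 5 markers of other cell types, of which CD3E was at 0 throughout. The lowest epithelial marker, CDH1, was at 0.321 to 0.617 RPKM. PECAM1 and COL1A1, of the other list, reached 0.374 and 0.313 RPKM, each below CDH1 within every library. The targeted gene, GSTO1, was at 3.51 and 3.72 RPKM in DMSO and 2.70 RPKM with siGSTO1, 0.747 times the mean, and edgeR did not call it (adjusted p = 0.314). siRNA acts on mature transcripts, so nascent reads are a weak check of this label. The DMSO cultures themselves differed by more than 1.4-fold at 19.1% of 7825 genes, mostly lower in culture 2, and BAK1 and BCL2L2 were among them. TMM scaling, which the test uses, lowers every siGSTO1 fold against DMSO by 0.11 on the log2 scale relative to RPKM, so fitted values for siGSTO1 sit slightly under the RPKM folds.

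In the DMSO cultures the members spanned 3 orders of level. MCL1 was highest at 12.7 ± 0.504 RPKM (SD, n = 2), followed by BCL2L1 at 6.85 ± 0.578, PMAIP1 at 4.97 ± 0.554, BCL2L2 at 2.52 ± 0.955, BCL2L11 at 1.31 ± 0.190, BAK1 at 0.920 ± 0.378, BID at 0.456 ± 0.0980, BIK at 0.222 ± 0.0117, BBC3 at 0.215 ± 0.0990 and BMF at 0.0118 ± 0.00348. The ranges of neighbours over the DMSO cultures were apart, except that BCL2L11 overlapped BAK1 and BIK overlapped BBC3. Within each culture BCL2L11 was still above BAK1, whereas BIK was below BBC3 in culture 1 and above it in culture 2. The pro-survival genes together were transcribed at 21.96 and 22.14 RPKM in the DMSO cultures, and the 6 BH3-only genes at 7.07 and 7.29 RPKM, of which PMAIP1 made up 64.7% and 73.5%.

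**Figure D1:**
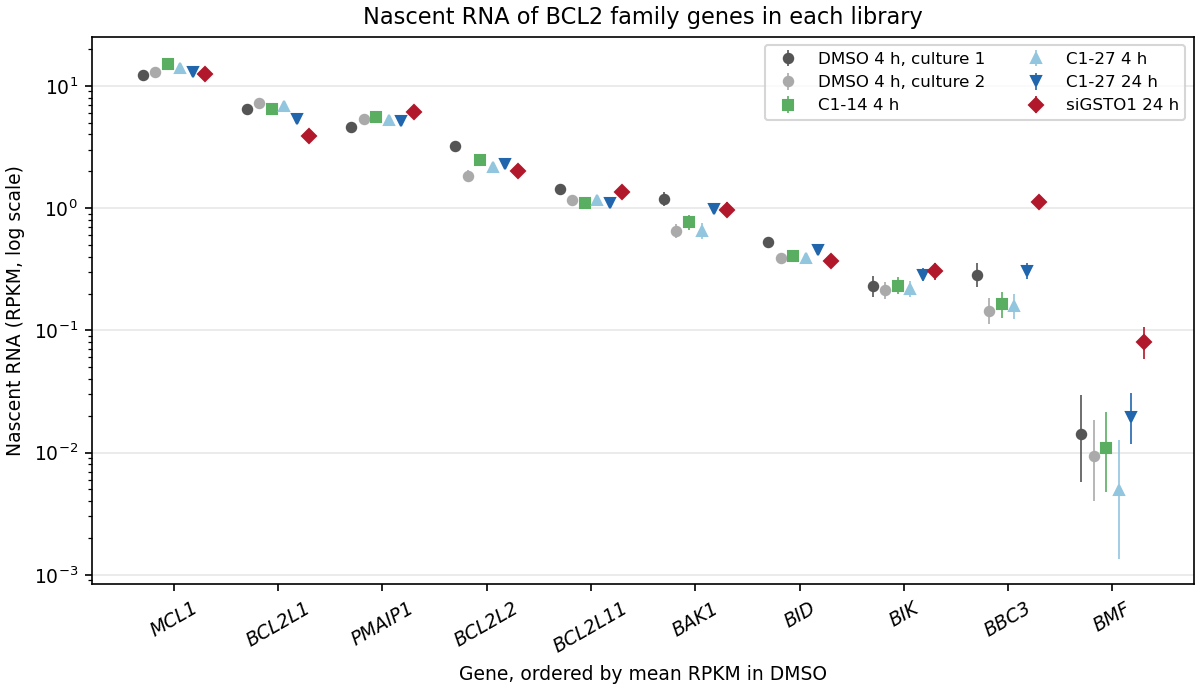
Nascent RNA of each member (RPKM, log axis) in each of the 6 libraries, with genes ordered by mean DMSO level and bars giving exact 95% Poisson intervals of the reads. BBC3 and BMF with siGSTO1 lie above all other libraries, and BCL2L1 with siGSTO1 lies below them.

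Among the pro-survival genes, BCL2L1 (chr20:30252261-30310656, hg19, minus strand) gives rise to BCL-XL. Its level was 6.44 and 7.26 RPKM in the DMSO cultures, 6.42 with C1-14, 6.83 with C1-27 at 4 h, 5.32 with C1-27 at 24 h and 3.88 with siGSTO1. The siGSTO1 culture was the lowest of the 6 and the 24 h C1-27 culture the next lowest, both below each DMSO culture. With siGSTO1 the gene was at 0.603 and 0.535 times DMSO cultures 1 and 2, and edgeR called it lower (log2 fold change -0.93, SE 0.284, adjusted p = 0.0271), where 1.21% of all genes tested were called lower. This call was lost with RLE size factors (adjusted p = 0.117) and in 3 of the other alternatives, over a range of 0.00205 to 0.117, while the direction was kept in each. With C1-27 at 24 h the RPKM ratio was 0.776, and edgeR did not call it (log2 fold change -0.42, SE 0.277).

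MCL1 (chr1:150547027-150552214, minus strand), whose product is short-lived and is replaced through continued transcription, stood at 12.33 and 13.04 RPKM in DMSO, 12.4 with siGSTO1, 14.0 and 12.8 with C1-27 at 4 h and 24 h, and 15.2 with C1-14. The siGSTO1 and 24 h C1-27 cultures lay inside the DMSO range, and the 4 h treated cultures above it. None of these differences was called. BCL2L2 (chr14:23775971-23780968, plus strand) was at 3.19 and 1.84 RPKM in DMSO, and every treated culture, from 2.03 to 2.48 RPKM, lay between those values. The ratio of MCL1 to BCL2L1 RPKM was 3.19 with siGSTO1 against 1.914 and 1.797 in DMSO. It was 2.41 with C1-27 at 24 h, 2.04 with C1-27 at 4 h and 2.36 with the inactive C1-14. Every treated culture was thus above both DMSO cultures in this ratio, which was not tested.

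Among the BH3-only genes, BBC3 (chr19:47724079-47736023, minus strand) encodes PUMA, which binds every pro-survival member. It had 79 and 70 reads in the DMSO cultures, 349 with siGSTO1, 72 and 167 with C1-27 at 4 h and 24 h, and 67 with C1-14. In RPKM these were 0.285 and 0.145 in DMSO, 1.12 with siGSTO1, 0.157 and 0.307 with C1-27 at 4 h and 24 h, and 0.163 with C1-14. Only the siGSTO1 culture stood well clear of both DMSO cultures, which themselves differed 1.97-fold. Its level was 3.94 and 7.75 times those of DMSO cultures 1 and 2, with a counting interval of 4.71 to 6.98 on the pooled ratio. BBC3 was called higher by edgeR (log2 fold change 2.35, SE 0.448, adjusted p = 2.59e-05), where 3.69% of all genes tested were called higher, and in each alternative that tested it (adjusted p up to 0.0216). The row shares its strand with the microRNA gene MIR3191, and it was counted over 11869 of its 11945 bases. Members without a same-strand gene were counted over their full length. Whether the bases left out of BBC3 are those of MIR3191 was not checked.

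BMF (chr15:40380092-40401075, minus strand) encodes a BH3-only protein known to be held at the cytoskeleton. It was the least transcribed member, with 7 and 8 reads in DMSO, 44 with siGSTO1, 4 and 19 with C1-27 at 4 h and 24 h, and 8 with C1-14. The siGSTO1 culture was highest and the 24 h C1-27 culture next. BMF passed the count filter only through these 2 libraries, so its place among the genes tested depended on its being high there. Its test result is therefore given as a description and is not counted as support. With siGSTO1 its RPKM was 5.60 and 8.54 times the DMSO cultures (counting interval of the pooled ratio 3.91 to 13.9), and edgeR called it higher (log2 fold change 2.70, SE 0.639, adjusted p = 0.00143). With no count filter the adjusted p was 0.0104. DESeq2 did not call it (adjusted p = 0.663), over a range of 7.35e-04 to 0.663 across the alternatives. With 0.1 RPKM added to both levels, the BMF fold of siGSTO1 against the DMSO mean fell from 6.76 to 1.61.

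**Figure D2:**
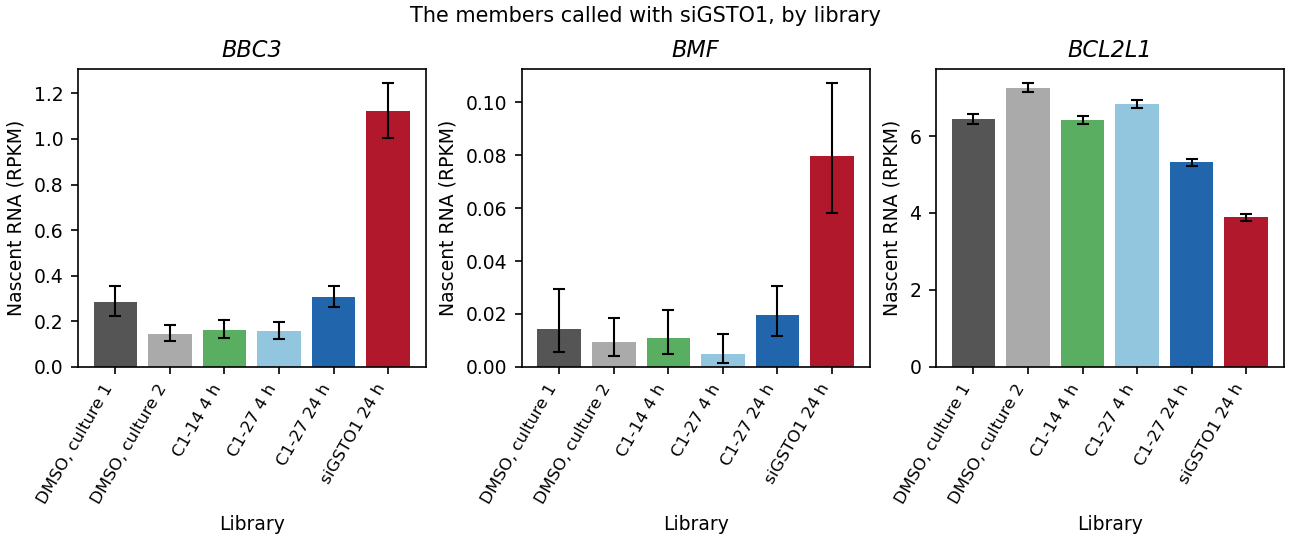
RPKM of BBC3, BMF and BCL2L1 in each library, from 0, with exact 95% Poisson intervals of the reads as error bars. The siGSTO1 bars reach 1.12 RPKM for BBC3 and 0.0799 for BMF, the highest of the 6, and 3.88 for BCL2L1, the lowest.

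The other BH3-only genes were not called with siGSTO1. PMAIP1 (chr18:57567192-57571538, plus strand), which encodes NOXA, a protein that chiefly binds MCL1, was at 4.57 and 5.36 RPKM in DMSO and 6.09 with siGSTO1, the highest of the 6, and at 5.15 to 5.59 in the other treated cultures. Its fitted log2 fold change with siGSTO1 was 0.17 (SE 0.302). BCL2L11 (chr2:111878491-111926022, plus strand), which encodes BIM, was at 1.44 and 1.17 RPKM in DMSO, 1.35 with siGSTO1 and 1.10 to 1.17 in the cultures given a compound. BID (chr22:18216906-18257431, minus strand), which links death receptors to mitochondria once cut by caspase, was at 0.525 and 0.387 RPKM in DMSO and 0.372 with siGSTO1. BIK (chr22:43506754-43525718, plus strand) was at 0.230 and 0.213 RPKM in DMSO, and at 0.305 with siGSTO1 and 0.286 with C1-27 at 24 h, the 2 highest values. The BIK difference with siGSTO1 (log2 fold change 0.35, SE 0.473) was not called.

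The effector BAK1 (chr6:33540323-33548070, minus strand), which forms pores in the outer membrane, was at 1.19 and 0.653 RPKM in DMSO, 0.970 with siGSTO1, 0.651 and 0.990 with C1-27 at 4 h and 24 h, and 0.767 with C1-14. The DMSO cultures differed 1.82-fold, and every treated culture lay between them, except C1-27 at 4 h, which matched the lower one at 0.997 times. Any change of BAK1 within that spread was not detectable with these libraries.

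**Figure D3:**
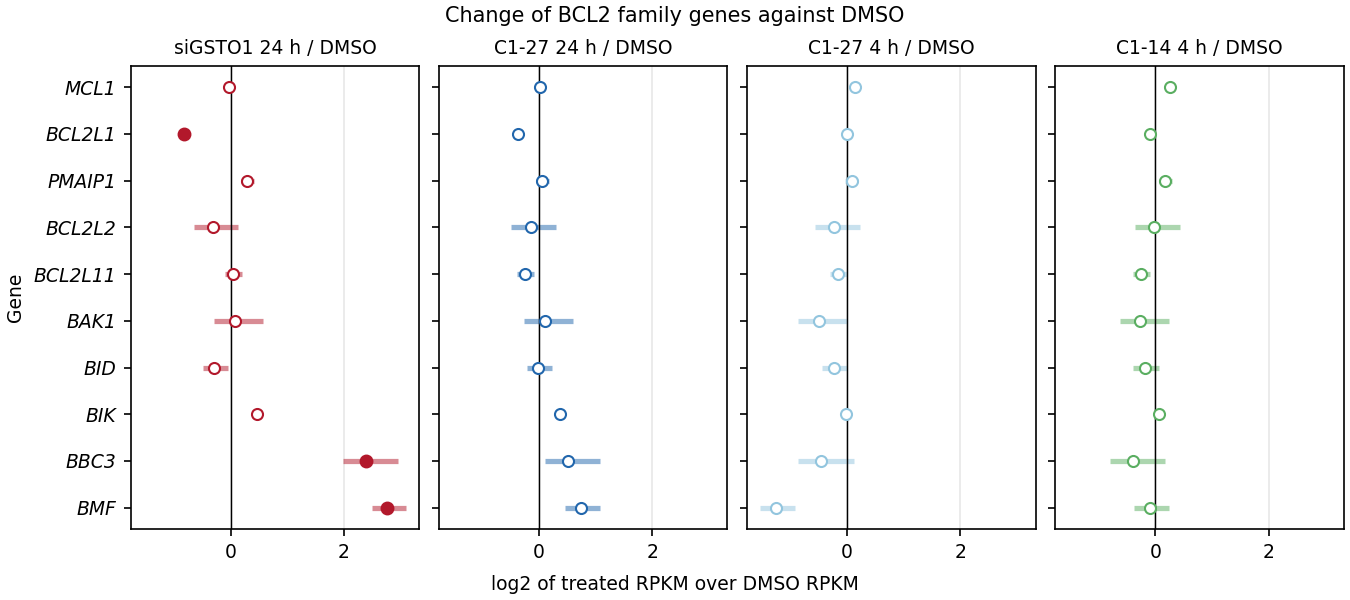
log2 of the RPKM of each treated culture over DMSO, with the circle against the DMSO mean and the line spanning the values against each DMSO culture. Filled circles were called by edgeR: BBC3, BMF and BCL2L1 with siGSTO1 only.

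Over the 10 members, the siGSTO1 log2 fold changes had a median of -0.03, against 0.02 for all genes tested, with 5 above 0 and 5 below. Summed by role, BH3-only transcription was 9.32 RPKM with siGSTO1 against 7.07 and 7.29 in DMSO. Pro-survival transcription was 18.3 against 21.96 and 22.14, and the pro-survival to BH3-only ratio was 1.96 against 3.11 and 3.04. These sums weigh the more transcribed members most and were not tested. PMAIP1, which was not called, was at 6.09 RPKM against 4.57 and 5.36, and BCL2L1 at 3.88 against 6.44 and 7.26. BBC3 made up 12.03% of BH3-only RPKM with siGSTO1, against 4.02% and 1.98% in DMSO, and PMAIP1 65.4%. By the fold limit of the study, 1.4-fold with a mean level above 0.5 RPKM, 6 members, each above 0.5 RPKM in DMSO too, passed the filter with siGSTO1, and BCL2L1 was past the limit, downwards, where 16.9% of all genes past the filter exceeded it in either direction. BBC3 passed the filter only through its siGSTO1 level, so it had to differ and its place past the limit is not counted. The 16.9% leaves such genes in, so it is not a like share for the 6 members.

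With C1-27 at 24 h, edgeR called none of the 10 members, where it called 0.36% of all genes tested. None of the 10 had an unadjusted p under 0.05, and DESeq2 called 0. BBC3 was at 1.43 times its DMSO mean, 1.08 and 2.12 times the single cultures, with a fitted log2 fold change of 0.54 (SE 0.495). BMF was at 1.67 times, with a fitted log2 fold change of 0.75 (SE 0.780). Of the 6 members with enough signal, 0 were past 1.4-fold, where 6.72% of all genes were. These siGSTO1 and C1-27 values share the same DMSO cultures.

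The 24 h cultures were therefore also compared directly. The fold between them uses no DMSO value, but its test does, since each arm was 1 culture and the spread came from the DMSO cultures. Leaving DMSO out of the fold does not remove differences between single cultures. At BBC3 the DMSO cultures differed 1.97-fold, and a difference of that kind would stay in this fold. BBC3 was 3.66 times higher with siGSTO1 than with C1-27 at 24 h (counting interval 3.04 to 4.43), and edgeR called this difference (log2 fold change 1.81, SE 0.497, adjusted p = 0.0240), where 1.43% of all genes tested were called. The call was lost with DESeq2 (adjusted p = 0.845) and with legacy dispersions (adjusted p = 0.0946). Neither the legacy setting nor the non-legacy setting of the main fit was fixed before seeing the data. The BBC3 call between the 24 h cultures therefore depended on a choice not made beforehand. BMF differed 4.06-fold and was not called (adjusted p = 0.0997), nor was BCL2L1, at 0.731 times (log2 fold change -0.51, SE 0.316).

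Between C1-27 at 24 h and at 4 h, 1 culture each, no member was called by edgeR or DESeq2, where edgeR called 0.125% of all genes tested, and none had an unadjusted p under 0.05. BBC3 was at 1.96 times (log2 fold change 0.88, SE 0.592) and BCL2L1 at 0.779 times (log2 fold change -0.44, SE 0.315).

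At 4 h the inhibitor and its inactive analogue were used at different doses, 1 µM and 10 µM, so their values are set side by side. With C1-27 no member was called by edgeR (0.0208% of all genes tested were) or by DESeq2, and with C1-14 none was either (0.139% of all genes). None of the 10 had an unadjusted p under 0.05 with C1-27 or with C1-14. BBC3 was at 0.731 times DMSO with C1-27 and 0.759 times with C1-14, BCL2L1 at 0.997 and 0.937 times, and MCL1 at 1.10 and 1.20 times. Of 6 members with enough signal, BAK1 was past 1.4-fold with C1-27 at 0.708 times DMSO, but at 0.548 and 0.997 times the single cultures, and 2.67% of all genes were past that limit. With C1-14, 0 of 6 were, against 4.73% of all genes.

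A list of 48 further apoptosis genes was read in the same way, and 43 had enough reads to be tested. With siGSTO1, 3 of the 43 were called higher and 0 lower, where 3.69% and 1.21% of all genes tested were, and 1 call in a list this short is no result about the list: 1 of 10 other BCL2 family genes, 1 of 11 genes of the apoptosome and caspases, 0 of 5 inhibitors of apoptosis, 0 of 8 death receptor pathway genes and 1 of 9 regulators of BH3-only genes. APAF1, the scaffold of the apoptosome, which activates caspase-9 once cytochrome c leaves mitochondria, was at 0.318 and 0.395 RPKM in DMSO and 0.833 with siGSTO1, 2.34 times the mean (edgeR log2 fold change 1.10, SE 0.254, adjusted p = 9.66e-04). DDIT3, which encodes the stress transcription factor CHOP, was at 1.21 and 0.848 RPKM in DMSO and 3.61 with siGSTO1, 3.51 times the mean (adjusted p = 0.00200). BNIP3L, which encodes a mitophagy receptor, was at 0.150 and 0.117 RPKM in DMSO and 0.394 with siGSTO1, 2.95 times the mean (adjusted p = 0.0173). DESeq2 called none of these 3 (adjusted p of 0.0605, 0.0560 and 0.154). The siGSTO1 values were the highest of the 6 libraries for all 3 genes.

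With C1-27 at 24 h, APAF1 alone of the 43 was called, where 0.36% of all genes tested were, at 0.719 RPKM or 2.02 times DMSO (adjusted p = 0.0482), and the call was lost in 5 of 7 alternatives (adjusted p up to 0.923). DDIT3 was at 2.08 RPKM and BNIP3L at 0.295 RPKM in that culture, 2.03 and 2.20 times DMSO, and neither was called. None of the 43 was called by edgeR at 4 h with C1-27 or C1-14, where 0.0208% and 0.139% of all genes tested were, and none had an unadjusted p under 0.05.

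**Figure D4:**
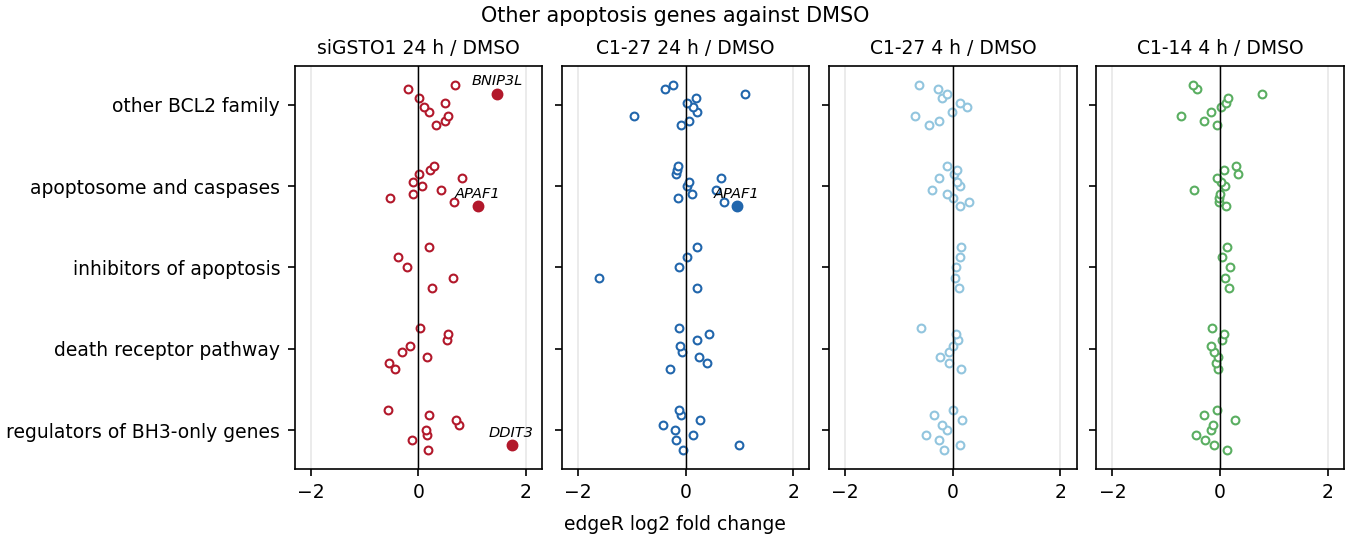
edgeR log2 fold changes of the 43 tested apoptosis genes outside the 10 members, by list and treatment, 1 circle a gene, with called genes filled and named. APAF1, BNIP3L and DDIT3 are filled with siGSTO1 and APAF1 with C1-27 at 24 h.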

How the data were processed

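HCT116 nascent RNA was profiled by Bru-seq in 6 cultures. Per the labels, libraries were strand-specific. The submitters' processing notes name CASAVA 1.8.2, Bowtie 0.12.8, TopHat 1.4.1, bedtools 2.16.2 and hg19. The deposited expected counts cover exons and introns and need not be whole. The deposited files also give coverage signal per base and RPKM, which the authors scaled to mapped reads.

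Counts were rounded. Genes longer than 300 bp were kept where 2 libraries reached 10 counts, and these 14431 were fitted with edgeR 4.0.16 (R 4.3.3; TMM, quasi-likelihood, non-legacy dispersions), with Benjamini-Hochberg adjustment over all genes and a threshold of 0.05. Residual spread came from the 2 DMSO cultures alone, 1 degree of freedom (common dispersion 0.0381), and each treated culture was assumed to vary like them, so p-values rest on that assumption. Nothing says whether the DMSO cultures were biological replicates. DESeq2 1.42.0, legacy dispersions and other filters and scalings were alternatives. The non-legacy setting of the main fit, like the legacy alternative, was not fixed before seeing the data. Intervals (exact Poisson, and Clopper-Pearson for ratios, 95%) cover counting error only. The script was tested on simulated data. All 10 members are named, and of 48 companion genes those edgeR called against DMSO. Members and lists were chosen with earlier results of these data known. RefSeq promoters are GRCh38.p14, and gene positions are hg19. BID shares its strand with MIR3198-1 and was counted over 40446 of its 40526 bases.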

Additional observations from a re-analysis of the deposited data

Results flagged for a closer look

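Reads on the strand opposite to a member stood above the pooled DMSO level, by counting error alone, in 3 cases that the comparisons above do not use. The antisense row of BBC3 had 13 reads with siGSTO1 where DMSO had 3 and 9 (2.65 times per mapped read, interval 1.11 to 6.35). It had 13, 15 and 8 with C1-27 at 4 h, C1-27 at 24 h and C1-14. The microRNA gene MIR3190 overlaps BBC3 on that opposite strand, and its share of these reads was not determined. The antisense row of BID had 51 reads with siGSTO1 and 78 with C1-27 at 24 h, against 14 and 60 in DMSO (1.68 and 1.47 times). In RPKM this was 0.0480 and 0.0420, against 0.0145 and 0.0366 in DMSO cultures 1 and 2, so both lay much nearer to culture 2. The share of all genes that pass the same rule is not given here. The spread between DMSO cultures was not part of these intervals, and the cause was not tested.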

How the results depend on the processing

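Of 3 members called with siGSTO1, 0 were called with a mean RPKM filter above 0.5, which leaves BBC3 and BMF untested, and that filter called 198 of all genes in place of 708. BBC3 against C1-27 at 24 h was not called under 3 settings (0 members with that filter, DESeq2 or legacy dispersions), and 49 and 22 of all genes were called with the filter and DESeq2 in place of 206. DESeq2 called 213 genes with siGSTO1, 18 with C1-27 at 24 h in place of 52, 0 with C1-27 at 4 h in place of 3 (1 with no count filter), 2 with C1-14 in place of 20, and 5 between C1-27 at 24 h and 4 h in place of 18 (9 with the RPKM filter). BCL2L1 with siGSTO1 was not called with RLE factors, no count filter (adjusted p = 0.0745), the RPKM filter (0.0630) or only DMSO and the treated culture (0.0764). Members past 1.4-fold with C1-27 at 4 h numbered 1, but 0 with a pseudocount of 0.1 RPKM or TMM scaling, 2 with no RPKM filter, and 0 to 2 when DMSO culture 1 or 2 was left out. With C1-27 at 24 h they numbered 0, but 2 with no RPKM filter and 0 to 1 with 1 DMSO culture left out (BAK1, without culture 1), and with C1-14 they numbered 0, but 0 to 1 (BAK1, without culture 2). No direction of a called member reversed. No paired analysis was possible because treated groups have 1 culture each. The low counts of BMF limit its precision, and its call, which depended on the libraries where it was high, is not counted as support.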
